A study of Papio anubis with 588 samples.

Results

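PPP1R1B, KCNC1 and ABAT were followed in skeletal muscle of captive baboons as 3 of the 34178 genes in the deposited count table. They were chosen by their measured muscle change after a switch of diet, as among the largest of well-expressed genes, so their muscle change is given here as a description without a p-value. Biopsies of muscle, liver and adipose were taken from 99 animals on a low cholesterol, low fat diet (LCLF, 0 yr) and again after 2 yr on a high cholesterol, high fat diet (HCHF). Every animal received the diets in that order and no group stayed on LCLF, so diet, time and age cannot be told apart. After the authors' quality control, muscle held 96 LCLF and 98 HCHF libraries, liver 95 and 87, and adipose 99 and 95.

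Both libraries passed for 95 animals in muscle, 84 in liver and 95 in adipose, and each animal was compared with itself. Library totals ran from 6.51 to 38.46 M counts with a median of 19.5 M. The labels describe a pair of library batches with different kits and read layouts. The 16 animals of batch 1 had a median total of 10.95 M counts per library and the 83 of batch 2 had 20.1 M, and each animal kept to 1 batch. Markers of the labelled tissue were present in each tissue: 8 myofibre genes took 8.77% to 20.0% of the counts in muscle, 10 hepatocyte genes 4.56% to 26.6% in liver and 9 adipocyte genes 0.147% to 3.34% in adipose.

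PPP1R1B encodes the dopamine- and cAMP-regulated phosphoprotein. When protein kinase A phosphorylates it, it inhibits protein phosphatase 1, and it is best known from dopamine-receiving neurons of the striatum. KCNC1 encodes a voltage-gated potassium channel that opens at depolarised potentials and closes quickly, which lets fast-firing neurons repolarise within a brief spike. ABAT encodes the mitochondrial GABA transaminase, which starts the breakdown of the inhibitory transmitter GABA and also acts on beta-alanine. In skeletal muscle, protein phosphatase 1 acts on glycogen metabolism and contraction, potassium channels shape the action potential of the fibre, and amino acid transaminases feed the citric acid cycle.

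PPP1R1B was higher on HCHF in most muscles. On the scale of CPM (a gene's counts scaled to a common library total), its level on LCLF was 0.256 at the lowest, 5.14 at the median and 44.6 at the highest. On HCHF it was 1.27, 10.5 and 66.0 CPM. The groups overlapped over most of their range, and the shift showed in the pairs: the level was higher after 2 yr in 75 of 95 animals, by at least 1 log2 unit in 46, and lower by as much in 5. The within-animal change of log2 CPM had a median of 0.98 and a mean of 0.88 ± 1.21 (SD, n = 95). The edgeR fit with the animal as a block gave 0.88 ± 0.12 (SE), a 1.84-fold higher level. Here and in all that follows for whole tissue, a change in the number of cells of a type and a change in RNA per cell cannot be told apart.

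KCNC1 was also higher on HCHF, with a wider spread among animals. Its level on LCLF was 0.110 CPM at the lowest, 2.21 at the median and 18.3 at the highest. On HCHF the lowest was 0.0753, the median 3.81 and the highest 51.0 CPM, so the HCHF libraries held both the lowest and the highest values of the gene. The level was higher after 2 yr in 67 of 95 animals and lower in 28. It was higher by at least 1 log2 unit in 43 animals and lower by as much in 15. The within-animal change had a median of 0.75 and a mean of 0.74 ± 1.71 (SD, n = 95), and edgeR gave 0.83 ± 0.18 (SE), a 1.78-fold higher level. The SD of log2 level across the same animals was 1.28 on LCLF and 1.74 on HCHF, against 1.36 and 1.25 for PPP1R1B.

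ABAT was lower on HCHF in 66 of 95 animals, and its upper tail lengthened at the same time. On LCLF the level was 0.923 CPM at the lowest, 6.01 at the median and 29.1 at the highest. On HCHF the lowest was 0.30, the median 2.96 and the highest 106 CPM. The median was about 2-fold lower while the mean level hardly moved, at 6.82 CPM on LCLF and 6.79 on HCHF. The within-animal change had a median of −0.73 and a mean of −0.60 ± 1.20 (SD, n = 95): the level was lower by at least 1 log2 unit in 42 animals and higher by as much in 10. With the animal as a block, edgeR gave −0.64 ± 0.13 (SE). Without the block the estimate was −0.07 for ABAT, 1.11 for KCNC1 and 0.79 for PPP1R1B.

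**Figure D1:**
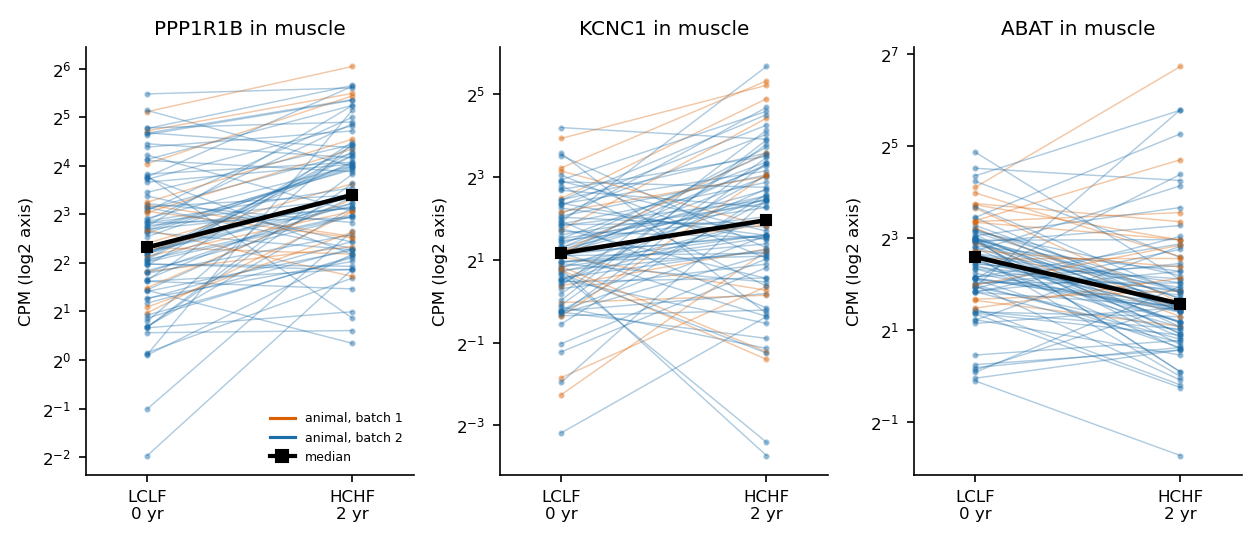
CPM of PPP1R1B, KCNC1 and ABAT in muscle (log2 axis) on LCLF at 0 yr and HCHF at 2 yr, 1 line per animal with both libraries (n = 95), coloured by library batch; black squares are the medians. Most lines rise for PPP1R1B (75 of 95) and KCNC1 (67 of 95) and fall for ABAT (66 of 95), and the groups overlap for all 3 genes.

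The highest ABAT libraries differed in what else they held. The 4 muscle libraries with the most ABAT were all HCHF, at 106, 55.3, 54.8 and 38.4 CPM. Hepatocyte markers, which mark liver and had a median summed level of 9.55 CPM in LCLF muscle, took 2.81% of the counts in the library at 55.3 CPM and 2.15% in that at 38.4 CPM, but 0.0169% in the library at 106 CPM and 0.00126% in that at 54.8 CPM. ABAT in liver itself had a median of 287.5 CPM on LCLF. In the other 2 muscle libraries with at least 0.1% hepatocyte markers, ABAT stood at 10.9 CPM (LCLF) and 2.96 CPM (HCHF). Leaving out the 4 animals with a muscle library of at least 0.1% hepatocyte or adipocyte markers gave changes of −0.67 for ABAT, 0.89 for PPP1R1B and 0.88 for KCNC1.

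The directions held in both library batches by the median, and less evenly by the fitted mean. PPP1R1B had a median within-animal change of 1.00 in batch 1 (higher in 13 of 16 animals) and 0.92 in batch 2 (62 of 79). For KCNC1 the medians were 0.98 (12 of 16) and 0.75 (55 of 79). ABAT had −0.31 in batch 1 (lower in 10 of 16) and −0.95 in batch 2 (lower in 56 of 79). The fits of single batches used different methods, limma-voom for batch 1 and edgeR for batch 2. They gave 0.00 and −0.71 for ABAT, and 1.29 and 0.79 for KCNC1. The mean within-animal change, computed alike in both batches, was −0.29 and −0.67 for ABAT, and 0.90 and 0.71 for KCNC1. For ABAT the mean of batch 1 moved from −0.29 to −0.49 when the animal with the library at 106 CPM was left out.

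Among the 8492 genes with a symbol and a mean of at least 5 CPM, PPP1R1B had the 4th and KCNC1 the 6th highest log2 fold change, and ABAT the lowest. Those above PPP1R1B included the homeobox gene BARX2 (1.87 ± 0.43, SE) and, just above it, the kinase gene SBK2 (1.16 ± 0.35). ACHE, the acetylcholinesterase of the synapse, lay between the 2 at 0.84 ± 0.15, and TSPAN2 just below KCNC1 at 0.81 ± 0.17. After ABAT came SIX2 (−0.58 ± 0.17), SIK1 (−0.53 ± 0.14) and CA4 (−0.49 ± 0.08). The differences between these neighbours in rank were smaller than their standard errors in most cases. Over all 13621 genes tested, 900 (6.61%) were higher and 1076 (7.9%) lower at an edgeR adjusted p under 0.05, together 14.5%, and the 3 genes ranked 10th, 15th and 4th from their ends.

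The 3 genes varied more between animals than most. The SD of the within-animal change was larger than that of 96.0% of the genes tested in muscle for PPP1R1B, 99.2% for KCNC1 and 95.8% for ABAT, where the median gene had 0.52. In adipose the SD for ABAT was 0.57, larger than that of 61.2% of the genes, and in liver 0.49, larger than that of 51.3%. PPP1R1B kept a wide spread in adipose, with an SD of 1.04.

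In 50 of 95 animals, PPP1R1B and KCNC1 were higher and ABAT lower after 2 yr. The other 7 combinations of directions held 3 to 9 animals each, and all 3 genes moved against the common direction in 7 animals. The sizes of the changes were loosely related. With the mean of each batch removed, Pearson's r between the within-animal changes was 0.14 for PPP1R1B and KCNC1, −0.23 for PPP1R1B and ABAT, and −0.37 for KCNC1 and ABAT (n = 95 animals, as a description; the points of a pair share their libraries and scaling). Within batch 2 (n = 79) these were 0.17, −0.22 and −0.41. In batch 1 (n = 16) they were −0.07, −0.36 and −0.15.

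**Figure D2:**
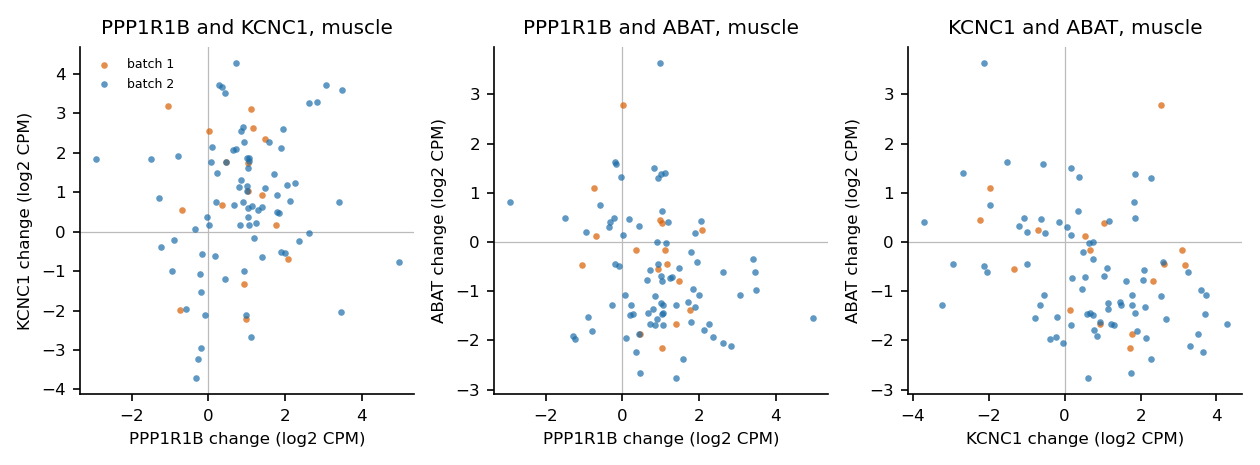
Within-animal change in muscle (HCHF minus LCLF, log2 CPM) of each pair of the 3 genes, 1 point per animal (n = 95), coloured by batch; grey lines mark no change. The upper right part is the fullest for PPP1R1B and KCNC1, and the lower right for both pairs with ABAT, while the clouds stay wide (r = 0.14, −0.23 and −0.37).

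The genes of each pair were also related across animals in the LCLF libraries alone. These libraries are part of the contrast that chose the genes, so the values are descriptions without a p-value. PPP1R1B and ABAT were inversely related across animals at 0 yr, with r = −0.26 in batch 2 (n = 80) and r = −0.59 in batch 1 (n = 16). Spearman's rho was −0.26 in batch 2 and −0.52 in batch 1. Leaving out the 2 animals farthest from the median of PPP1R1B gave r = −0.27 and −0.63. In batch 2, r at 0 yr was 0.09 for PPP1R1B and KCNC1 and −0.16 for KCNC1 and ABAT. In batch 1 it was 0.51 and −0.40. The permutation p-values given further on for adipose and liver were adjusted over a family of 18 relations. It held these 6 and the 12 of level at 0 yr against level at 2 yr. The test was 2-sided with 100000 resamples.

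The genes whose change in muscle was most like that of PPP1R1B were PLN, the phospholamban that restrains the calcium pump of slow and cardiac muscle, and CASQ2, the calsequestrin of the same muscles. Over 95 animals r was 0.71 for PLN and 0.63 for CASQ2. It was 0.61 for COQ8A, which serves coenzyme Q synthesis, 0.58 for DGLUCY, a D-glutamate cyclase, and 0.58 for GHRL, which encodes ghrelin. For PLN the value was 0.67 among the 16 batch 1 animals and 0.72 among the 79 of batch 2. Among the 11059 genes with a symbol and a mean of at least 1 CPM, 95% had an absolute r below 0.31 and 99% below 0.40. The lowest r belonged to APBB1 (−0.46), TMEM9 (−0.46) and AFAP1 (−0.44), an actin filament protein. At 0 yr alone, the level of PPP1R1B was again closest to PLN (r = 0.60, n = 96) and CASQ2 (0.59), followed by the fatty acid binding protein FABP3 (0.55), HADHA of mitochondrial fatty acid oxidation (0.53) and the Z-disc protein MYOZ2 (0.53).

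PPP1R1B followed slow-fibre genes from animal to animal. The 12 genes of a slow-fibre list had a median r of 0.39 with the change of PPP1R1B, where the median over all genes was 0.00. Of the 12, 1 was higher (8.33%, near the 6.61% of all genes) and none lower on HCHF. The one was the myosin light chain gene MYL6B (0.32 ± 0.09, SE, edgeR adjusted p = 0.00712, higher in 64 of 95 animals). PLN itself had a change of 0.11 ± 0.10 (edgeR adjusted p = 0.499) and MYL2, the slow myosin light chain, −0.08 ± 0.10. In adipose (n = 95), r between the changes of PPP1R1B and PLN was 0.08, while it was 0.30 for CASQ2, 0.48 for COQ8A and 0.50 for HADHA.

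The change of KCNC1 had a wider range of r with other genes, of which 95% had an absolute r below 0.45, against 0.31 for PPP1R1B and 0.34 for ABAT. The highest were MYOM2 (r = 0.73), a protein of the M-band that ties thick filaments together, and NRAP (0.73), an actin-binding protein of myofibril assembly. RXRG, a retinoid X receptor, followed at 0.71, then MGST3 (0.70), a microsomal glutathione transferase, and KBTBD13 (0.70), a muscle ubiquitin ligase adaptor. ARHGEF17 (−0.68), a guanine nucleotide exchange factor, PEX6 (−0.65), which serves peroxisome import, and JPT1 (−0.65) lay at the other end. These last 3 were themselves lower on HCHF, with ARHGEF17 at −0.32 ± 0.08 (SE, edgeR adjusted p = 0.00522), JPT1 at −0.19 ± 0.05 (adjusted p = 0.0128) and PEX6 at −0.15 ± 0.05 (adjusted p = 0.0394). MYOM2 (0.10 ± 0.05) and NRAP (0.16 ± 0.08) did not pass. At 0 yr the level of KCNC1 was closest to ACSS1 (r = 0.66), a mitochondrial acetyl-CoA synthetase, KALRN (0.63), ERGIC1 (0.63), KBTBD13 (0.62) and COQ10A (0.61).

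ABAT was closest to PLA2G15 (r = 0.60), a lysosomal phospholipase, GLMP (0.60), a lysosomal membrane glycoprotein, and UBE4A (0.59), a ubiquitin ligase. PYROXD2 (0.59) and CLN6 (0.59), a protein of the endoplasmic reticulum lost in a lysosomal storage disease, came next. SH2B2 (−0.59), an adaptor of receptor tyrosine kinases, ASB12 (−0.57) and HACD1 (−0.55), which acts in the elongation of very long fatty acids, lay opposite. Without the 4 animals with liver or adipose markers, r was 0.53 for GLMP and 0.65 for UBE4A. At 0 yr UBE4A led again (r = 0.62), before NEDD4L (0.59), a ubiquitin ligase acting on ion channels, the transcription factor BACH2 (0.55), YPEL1 (0.55) and PNPLA7 (0.54), a lysophospholipase. In liver, where ABAT was far more abundant, r between the changes of ABAT and UBE4A was 0.05, with PLA2G15 −0.31, with GLMP 0.43, with PYROXD2 −0.36 and with CLN6 −0.14.

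**Figure D3:**
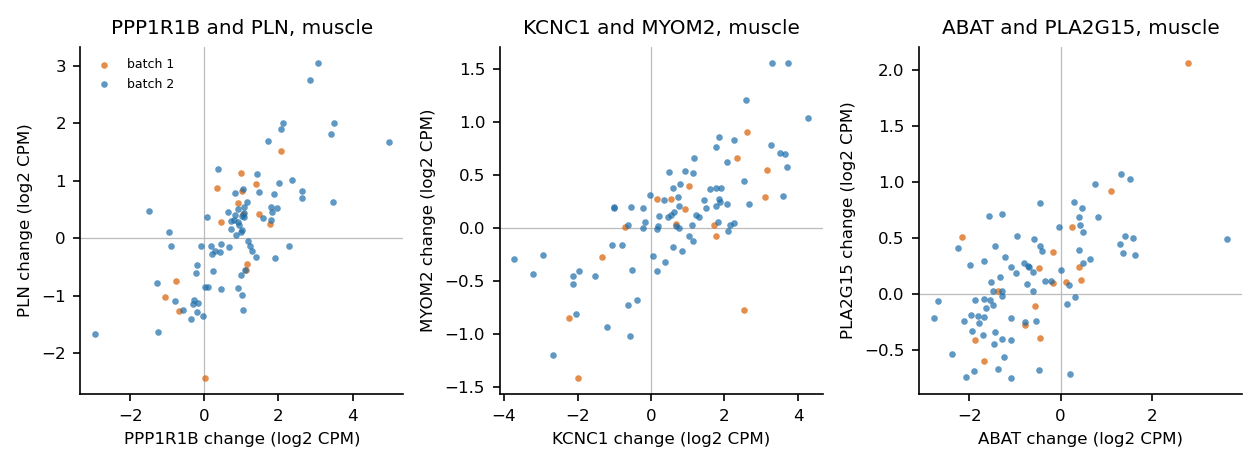
Within-animal change in muscle (log2 CPM) of each gene against that of the gene most like it, 1 point per animal (n = 95), coloured by batch. The points rise together for PPP1R1B and PLN (r = 0.71), KCNC1 and MYOM2 (r = 0.73) and ABAT and PLA2G15 (r = 0.60).

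Part of the closest genes were the same by both measures. Of the 100 genes closest by change, 38 were also among the 100 closest by level at 0 yr for PPP1R1B, 44 for KCNC1 and 30 for ABAT; the change contains the 0 yr libraries.

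Related genes that the rule of choice did not name were tested on the diet change in muscle. Of the 56 genes named in the text that passed, 21 also passed in edgeR without the animal block, among them KCNC4, ACHE and GABRB2, which passed in batch 2 alone too. Of 34 catalytic and regulatory subunit genes of protein phosphatase 1 tested, 2 were higher (5.88%) and 6 lower (17.6%) on HCHF, where 6.61% and 7.9% of all genes were, with a median of −0.02 against 0.00 for all genes. PPP1R3D, which targets the phosphatase to glycogen, was at 0.19 ± 0.07 (SE, edgeR adjusted p = 0.0362, higher in 59 of 95 animals). The inhibitor gene PPP1R14B was at −0.19 ± 0.05 (adjusted p = 0.00691), the targeting gene PPP1R9A at −0.19 ± 0.06 (adjusted p = 0.0276) and PPP1R16A at −0.19 ± 0.05 (adjusted p = 0.0118). PPP1R1A, the inhibitor of the same family as PPP1R1B and much more strongly expressed in muscle, moved the other way from it at −0.16 ± 0.05 (adjusted p = 0.0196). The catalytic gene PPP1CB (0.07 ± 0.05) and the muscle glycogen-targeting gene PPP1R3A (0.10 ± 0.07) did not pass. In the pathway that acts on PPP1R1B, from dopamine and adrenergic receptors through adenylyl cyclases to protein kinase A and phosphodiesterases, 2 of 41 genes were higher and 1 lower, together 7.32% against 14.5% of all genes. They were the cyclases ADCY1 (0.30 ± 0.10, adjusted p = 0.0341) and ADCY7 (0.23 ± 0.08, adjusted p = 0.0389) and the phosphodiesterase PDE8A (−0.11 ± 0.04, adjusted p = 0.0455).

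A channel gene related to KCNC1 was also higher. Of 18 other voltage-gated potassium channel genes tested, 2 were higher and 2 lower (11.1% each, against 6.61% and 7.9% of all genes). KCNC4, of the same subfamily, rose by 0.37 ± 0.07 (SE, edgeR adjusted p = 4.75e-05, higher in 71 of 95 animals), and r between its change and that of KCNC1 was 0.49. KCNA1, an axonal channel, was at 0.52 ± 0.14 (adjusted p = 0.00629) from a mean of 0.631 CPM, KCNA5 at −0.29 ± 0.08 (adjusted p = 0.00566) and KCNQ5 at −0.29 ± 0.07 (adjusted p = 0.00303). The muscle channel gene KCNA7 did not pass (0.08 ± 0.07), although r with the change of KCNC1 was 0.58.

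Among 23 other genes of fibre excitation, 1 was higher (4.35%) and 4 lower (17.4%), against 6.61% and 7.9% of all genes. The higher was SCN4B, a sodium channel subunit (0.32 ± 0.10, SE, edgeR adjusted p = 0.0242), whose change had r = 0.60 with that of KCNC1. ABCC8 (−0.58 ± 0.14, adjusted p = 0.00416) and KCNJ11 (−0.18 ± 0.06, adjusted p = 0.0245), the receptor and the pore of the ATP-sensitive potassium channel, were lower, as was the calcium channel subunit CACNG1 (−0.14 ± 0.05, adjusted p = 0.0267). For ABCC8, r with KCNC1 was −0.55. At the neuromuscular junction, 5 of 19 genes were higher (26.3%) and 3 lower (15.8%), beside the same shares of all genes. ACHE rose by 0.84 ± 0.15 (adjusted p = 0.000101, higher in 69 of 95 animals), with r = 0.41 with KCNC1. COLQ, the collagen tail of that enzyme, was at 0.52 ± 0.13 (adjusted p = 0.00472), the transcription factor ETV5 at 0.51 ± 0.15 (adjusted p = 0.0137) and the receptor subunit CHRNA1 at 0.45 ± 0.16 (adjusted p = 0.0424; it did not pass in limma-voom). The 3 lower genes were the scaffold genes DTNA (−0.14 ± 0.04, adjusted p = 0.00548) and RAPSN (−0.09 ± 0.03, adjusted p = 0.0369) and the receptor subunit gene CHRNB1 (−0.15 ± 0.04, adjusted p = 0.00723), with r of 0.19, −0.34 and −0.44 with KCNC1. Of 22 genes that respond to denervation and atrophy, 2 were higher (9.09%, near the 6.61% of all genes) and none lower. They were CHRNA1 and CDKN1A (0.45 ± 0.16, adjusted p = 0.0406).

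Genes of the pathways of ABAT were tested in the same way. Of 17 genes of GABA synthesis, breakdown, transport and linked transaminases, none was higher and 1 (5.88%) lower, against 6.61% and 7.9% of all genes. The one was GPT, an alanine transaminase, at −0.28 ± 0.09 (SE, edgeR adjusted p = 0.0232). ALDH5A1, the next enzyme of GABA breakdown, was at 0.07 ± 0.06 and GLUL, the glutamine synthetase, at −0.11 ± 0.09. The median r of this list was 0.30 with the change of KCNC1 and 0.23 with that of PPP1R1B, and −0.06 with ABAT itself. Among 11 genes of beta-alanine and pyrimidine breakdown none passed in either direction. ALDH6A1, which takes up the product of ABAT from beta-alanine, was at −0.13 ± 0.06 (adjusted p = 0.166), with r = 0.43 with ABAT. Of 28 genes of branched-chain amino acid breakdown, 2 (7.14%) were lower, IVD (−0.25 ± 0.06, adjusted p = 0.00175) and MCEE (−0.11 ± 0.03, adjusted p = 0.0216).

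Of 7 GABA receptor and receptor-linked genes, 1 was higher (14.3%) and 2 lower (28.6%), against 6.61% and 7.9% of all genes. GABRB2, a channel subunit, rose by 0.65 ± 0.15 (SE, edgeR adjusted p = 0.00229, higher in 67 of 95 animals), with r = 0.59 with the change of KCNC1 and −0.22 with ABAT. GABBR1, the metabotropic receptor, was at −0.17 ± 0.05 (adjusted p = 0.0184) and GABARAP, an autophagy protein named for the receptor, at −0.08 ± 0.03 (adjusted p = 0.0334).

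**Figure D4:**
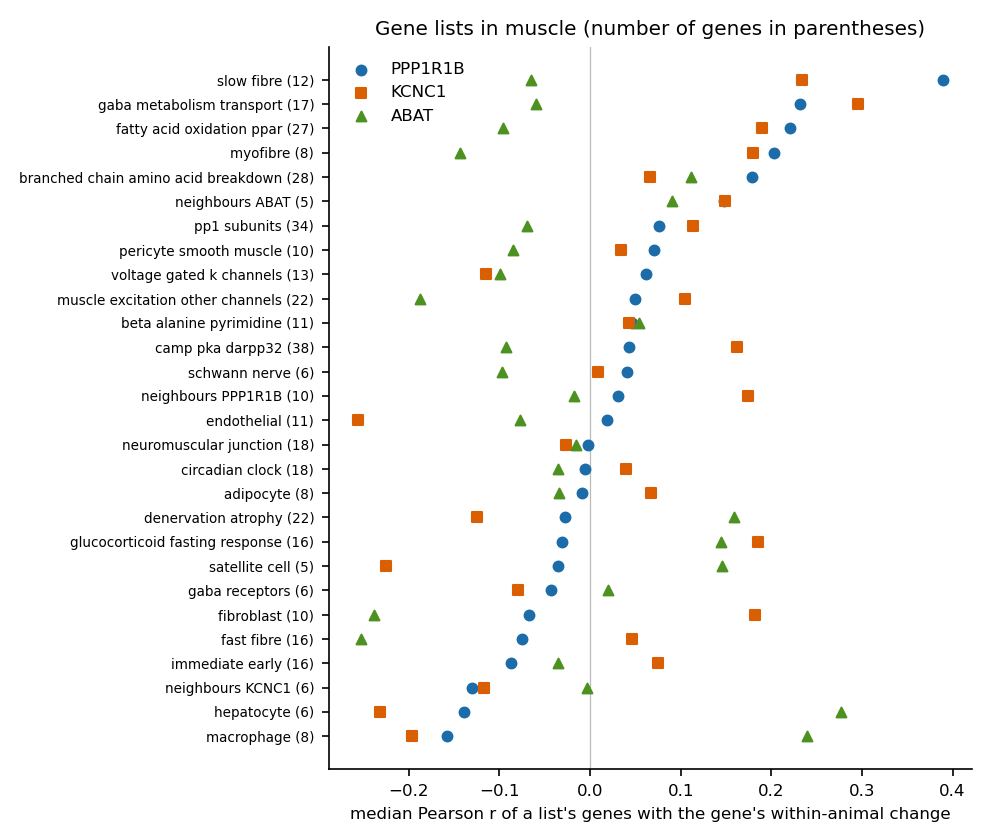
Median Pearson r in muscle (n = 95 animals) between the within-animal change of PPP1R1B (circles), KCNC1 (squares) or ABAT (triangles) and those of the genes of each list with at least 5 measured genes; the number of genes stands in parentheses. Slow-fibre genes stand apart for PPP1R1B at 0.39, and fast-fibre genes lie lowest for ABAT at −0.25.

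Of the nearest genes on the chromosome, those that could be tested did not pass. By the order of protein-coding genes in the RefSeq annotation of Panubis1.0, NEUROD2, which was too low to test, precedes PPP1R1B, STARD3 and then TCAP follow it, MYOD1 and SERGEF flank KCNC1, and METTL22 and TMEM186 flank ABAT. STARD3 was at 0.07 ± 0.03 (SE, edgeR adjusted p = 0.178) and TCAP, a Z-disc protein at a mean of 5483 CPM, at −0.02 ± 0.07. MYOD1, the myogenic transcription factor, was at 0.10 ± 0.10 and SERGEF at −0.03 ± 0.04. METTL22 stood at −0.08 ± 0.04 and TMEM186 at 0.06 ± 0.06. None of these 6 passed, and r with the change of the neighbouring gene lay between −0.21 for SERGEF and 0.21 for TCAP. Farther genes of the same regions, from lists of 6 to 10 tested genes each, passed in 4 cases. The share passing was 10% in the list of PPP1R1B, 33.3% in that of KCNC1 and 16.7% in that of ABAT, against 14.5% of all genes. ERBB2, a receptor tyrosine kinase gene near PPP1R1B, was at 0.14 ± 0.04 (adjusted p = 0.0238), and GRIN2A, a glutamate receptor gene on the chromosome of ABAT, at −0.56 ± 0.12 (adjusted p = 0.000593) from a mean of 0.725 CPM. ABCC8 and KCNJ11, given above as lower, lie in the region of KCNC1.

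Markers of other cells moved in muscle as well, and their part in the changes of the 3 genes was not tested. Of all genes, 6.61% were higher and 7.9% lower. The share called higher was 66.7% for macrophage, 62.5% for T and natural killer cell and 50% for fibroblast markers. For endothelial markers, 72.7% were called lower. None of 10 neuron markers was abundant enough to test: their summed level ran from 0.277 to 10.9 CPM on LCLF and from 0.234 to 12.5 CPM on HCHF, and 6 of the 10 had a median of 0, among them STMN2, NEFL and ELAVL4. The summed level of Schwann cell and nerve markers ran from 27.5 to 235.8 CPM on LCLF and from 24.8 to 159 on HCHF, and their median r was 0.04 with PPP1R1B, 0.01 with KCNC1 and −0.10 with ABAT. Macrophage markers rose in 6 of 9 genes, such as CSF1R (0.44 ± 0.12, SE, edgeR adjusted p = 0.00687), with summed levels of 5.82 to 90.5 CPM and then 5.6 to 247.7 CPM, and a median r of 0.24 with ABAT. T and natural killer cell markers rose in 5 of 8 and fell in none, such as PRF1 (0.51 ± 0.12, adjusted p = 0.00243), with summed levels of 2.77 to 26.3 CPM and then 2.81 to 51.8 CPM. Over the 3 of them measured well enough, the median r was −0.21 with KCNC1, 0.19 with ABAT and 0.09 with PPP1R1B. Endothelial markers fell in 8 of 11 genes (summed 114.5 to 926.8 CPM, then 106 to 913 CPM), with a median r of −0.26 with KCNC1. Fibroblast markers rose in 5 of 10 (178.6 to 1019 CPM, then 186 to 3552 CPM), with a median r of 0.18 with KCNC1 and −0.24 with ABAT. None of 6 hepatocyte markers passed (2.05 to 4694 CPM, then 0.721 to 28137 CPM), and their median r with ABAT was 0.28. Between the share of counts on hepatocyte markers and ABAT, r of the changes was 0.37 in batch 2 and −0.30 in batch 1, and 0.16 and 0.11 without the 2 farthest animals of each. Between the share on adipocyte markers and KCNC1, r was 0.35 in batch 2 and 0.21 in batch 1, and for PPP1R1B it was 0.24 and −0.10.

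Across tissues the 3 genes had different patterns. PPP1R1B was highest in adipose, with 4.93, 36.8 and 140.2 CPM on LCLF (lowest, median, highest) and 1.44, 39.8 and 207.6 CPM on HCHF. The muscle libraries reached into this range but their median was lower, and liver was near 0. KCNC1 was a muscle gene here: in liver 8 of 95 LCLF and 7 of 87 HCHF libraries had any count, and in adipose 48 of 99 and 43 of 95, at most 0.502 CPM. ABAT was a liver gene, with 127, 287.5 and 516 CPM on LCLF and 119.7, 293 and 464 CPM on HCHF. Its adipose level was 2.7, 8.76 and 35.6 CPM on LCLF and 2.81, 8.47 and 32.7 on HCHF. The ranges overlapped those of muscle, where the median was lower, at 6.01 CPM on LCLF and 2.96 CPM on HCHF. On HCHF the lower and upper quartiles were 2.08 and 5.38 CPM in muscle, and 6.42 and 10.9 CPM in adipose.

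**Figure D5:**
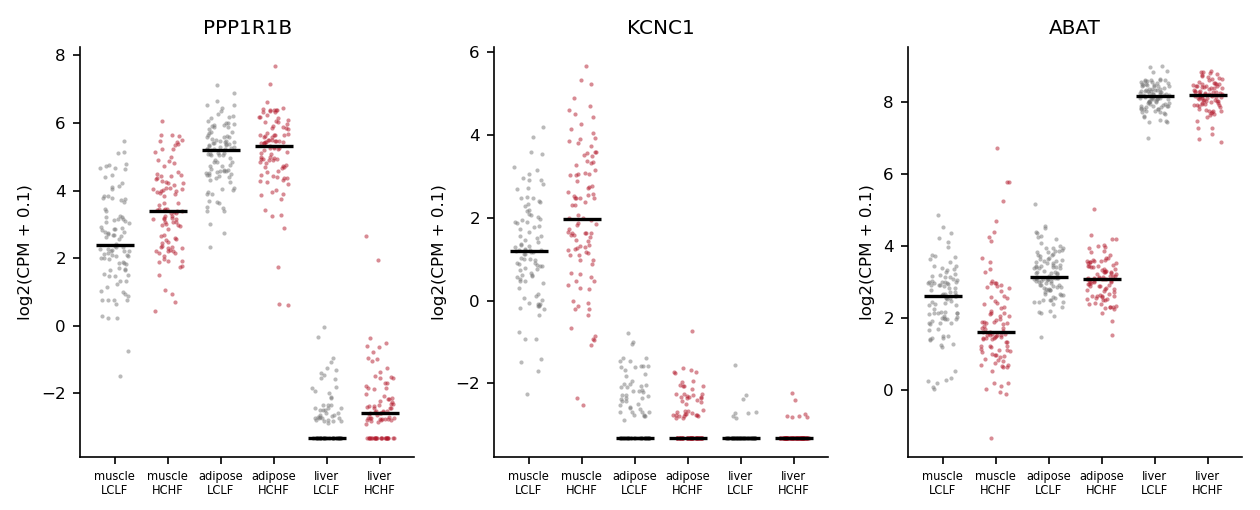
Level of the 3 genes as log2(CPM + 0.1) in every library that passed quality control, by tissue and diet (grey LCLF, red HCHF), with black bars at the medians; the points at the bottom are libraries with no count. PPP1R1B is highest in adipose and near 0 in liver, KCNC1 is near 0 outside muscle, and ABAT is highest in liver.

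Adipose and liver were compared within animals at 0 yr, where muscle plays no part. PPP1R1B stood at 39.6 CPM over all LCLF adipose libraries together and at 0.0646 CPM over the LCLF livers; it was abundant enough for the test only through adipose, so no test is given. ABAT was lower in adipose, with a difference of −6.32 ± 0.08 log2 units (SE, n = 95, edgeR adjusted p = 1.62e-86). In this comparison 92.9% of the 16580 genes tested differed.

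The diet change of the 3 genes in the other tissues was small or could not be tested. ABAT in liver had −0.09 ± 0.05 (SE, n = 84, edgeR adjusted p = 0.133), lower in 53 of 84 animals, while 49.4% of the 14919 genes tested in liver passed, 27.1% as lower. In adipose ABAT had −0.13 ± 0.06 (n = 95, edgeR adjusted p = 0.0602), lower in 57 of 95 animals, with 38.5% of 16827 genes passing and 19.8% lower. This call turned on the method: limma-voom gave −0.16 (adjusted p = 0.018), and batch 2 alone −0.16 (adjusted p = 0.0273). PPP1R1B in adipose had 0.10 ± 0.10 (n = 95, edgeR adjusted p = 0.498), higher in 55 of 95. The difference between the ABAT changes in liver and adipose was 0.04 ± 0.08 (limma adjusted p = 0.686, n = 82), where 37.6% of 14143 genes differed and 20.5% had the higher change in liver.

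PPP1R1B in liver and KCNC1 in liver and adipose were too low for the test. PPP1R1B had a count in 42 of 95 LCLF livers and 63 of 87 HCHF livers, with highest levels of 0.880 and 6.16 CPM. The medians, 0 and 0.0684 CPM, lay below the level of 3 counts in a library of median size (0.154 and 0.144 CPM). Without a filter, limma-voom gave 0.56 ± 0.19 (SE, adjusted p = 0.0123). The 2 highest HCHF livers, at 6.16 and 3.79 CPM, held 0.155% and 0.254% of their counts on adipocyte markers, and the part of adipose RNA in this difference was not tested. For KCNC1 the same fit gave −0.15 ± 0.06 in liver (adjusted p = 0.0204), where the libraries with a count were too few to read a change, and −0.21 ± 0.14 in adipose (adjusted p = 0.214).

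Levels of the same animal at 0 yr and at 2 yr were set against each other in each tissue. In muscle these are descriptions, since the libraries are those of the contrast that chose the genes. Among the 79 animals of batch 2, Pearson's r was 0.54 for PPP1R1B, 0.40 for ABAT and 0.30 for KCNC1, and Spearman's rho was 0.54, 0.34 and 0.30. Without the 2 animals farthest from the median, r was 0.51, 0.35 and 0.24. In batch 1 (n = 16) r was 0.75 for PPP1R1B, 0.62 for KCNC1 and 0.48 for ABAT, with rho of 0.49, 0.68 and 0.48, and without the 2 farthest animals r was 0.48, 0.58 and 0.36. All 12 values of r and rho in muscle were above 0.

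In the other tissues of batch 2, r between 0 yr and 2 yr was 0.50 for PPP1R1B in adipose (n = 79, permutation p = 2e-05, adjusted p = 0.00012), 0.59 for ABAT in adipose (n = 79, permutation p = 1e-05, the smallest that 100000 resamples can give, adjusted p = 9e-05) and 0.38 for ABAT in liver (n = 71, permutation p = 0.0012, adjusted p = 0.0037). Spearman's rho was 0.55, 0.54 and 0.37 (permutation test, adjusted p from 6e-05 to 0.0078). Without the 2 farthest animals r was 0.45, 0.52 and 0.29, and all 3 passed. In batch 1, r was 0.76 for PPP1R1B in adipose (n = 16, permutation p = 0.0042, adjusted p = 0.011), 0.40 for ABAT in adipose (n = 16, permutation p = 0.12, adjusted p = 0.15) and 0.38 for ABAT in liver (n = 13, permutation p = 0.2, adjusted p = 0.21). Spearman's rho there was 0.45, 0.41 and 0.52 (permutation p = 0.083, 0.11 and 0.075). Without the 2 farthest animals r was 0.53, 0.26 and 0.44.

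The change of a gene in muscle was also set against that in the same animal's other tissues. Between the muscle and adipose changes of PPP1R1B, r was 0.24 over 75 animals of batch 2 and 0.07 over 16 of batch 1, and 0.35 and 0.29 without the 2 farthest animals of each. For ABAT it was −0.07 and 0.65, and −0.05 and 0.25 without them. Between muscle and liver, ABAT had r = −0.17 (n = 67) and −0.41 (n = 13), and −0.21 and −0.11 without them. These are descriptions, since the muscle changes chose the genes.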

How the data were processed

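RNA-seq of 588 baboon biopsies was analysed. Gene counts were deposited by the authors as whole numbers without normalization, for all libraries and for the 570 that passed their quality control. FastQC, STAR 2.7.7a and featureCounts are listed in the submitters' processing notes. The build, the annotation and the strand setting were not given in the sources used here. Batch 1 was unstranded and batch 2 stranded per the labels' protocols, so genes overlapping on opposite strands are uncertain. Batch membership was read from the leading principal axis of mean expression per animal (21.9% of variance), which split 16 animals from 83 as the labels' numbers have it.

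The 3 genes, the 34 gene lists and the tests were chosen with earlier results of these data known. All symbols of the 3 matched RefSeq (33824 of 34178 did). Each tissue was fitted with edgeR 4.0.16 in R 4.3.3: TMM, filterByExpr with a minimum count of 10, the animal as a block, 1 common dispersion estimated from 400 genes spaced by abundance, the quasi-likelihood test and Benjamini-Hochberg adjustment over all genes tested, threshold 0.05. Fold changes are log2, HCHF minus LCLF. Changes per animal are differences of TMM log2 CPM with a prior count of 2. Liver minus adipose used limma 3.58.1 on those changes; its scripts and edgeR's were tested on simulated data. Correlations used 100000 permutations within batches.

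The pairing comes from the animal numbers in the labels: deviations from group means of an animal's libraries had a median r of 0.48 in muscle (over 0.1 in 90 of 95 animals), 0.51 in liver and 0.50 in adipose, against 0.00, −0.01 and −0.01 between animals. Named genes were the 3, the 5 genes most and 3 least like each by change, the 5 most like it by level at 0 yr, those next in rank, up to 4 called genes with the largest change per list, chromosomal neighbours and a fixed set of related genes; others named were chosen after their values were seen. Each library is 1 biopsy. With the animal as a block, p-values of the fits measure the spread of within-animal differences, in which animals and biopsies cannot be told apart. Alternatives were limma-voom, DESeq2 1.42.0, RLE scaling, other filters, no block, single batches, all libraries, and, added after seeing the data, leaving out animals with a library of at least 0.1% of counts on another tissue's markers. Some genes that the naming rule covers are not reported here.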

Additional observations from a re-analysis of the deposited data

Results flagged for a closer look

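The authors left 18 libraries out, and some of these held the 3 genes above the highest LCLF library of their labelled tissue, which is why they are listed. In 8 libraries labelled liver, PPP1R1B stood above 0.880 CPM. Of these, 5 held at most 0.0396% of counts on myofibre markers and a sixth held more: animals 14948 (174 CPM, HCHF), 14944 (140.1 CPM, HCHF), 14473 (119.6 CPM, HCHF), 17268 (94.3 CPM, HCHF), 17916 (39.0 CPM, HCHF) and 15163 (1.05 CPM, HCHF, with 3.61% of counts on myofibre markers). Hepatocyte markers took 0.00345% to 0.0868% of the counts in these 6, against at least 4.56% in the livers that passed. Adipocyte markers took 0.0125% to 0.0215% in animals 14948, 14944, 14473 and 17268, 0.0794% in 15163 and 0.791% in 17916. The adipose libraries that passed held at least 0.147%. The tissue these libraries came from was not tested. In the other 2, with 15.7% and 11.0% of counts on myofibre markers, PPP1R1B was at 3.56 CPM (animal 14642, HCHF) and 2.24 CPM (15292, LCLF). KCNC1, with a highest LCLF liver of 0.242 CPM, was at 1.49 CPM (14642, HCHF) and 1.00 CPM (15292, LCLF) in the same 2 libraries. It was at 9.37 CPM in the LCLF library of animal 14948 and at 5.38 CPM in that of 16400. These held 14.2% and 13.4% of counts on myofibre markers, and 0.063% and 0.092% on hepatocyte markers. In 2 libraries labelled adipose with 19.7% and 19.3% of counts on hepatocyte markers, ABAT was at 241 CPM (animal 16017, HCHF) and 319.6 CPM (17916, HCHF), where the highest LCLF adipose had 35.6 CPM.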

How the results depend on the processing

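Without the replicate block (each animal compared with itself), muscle had 448 genes higher and 133 lower in edgeR and 411 and 132 in DESeq2, against 900 and 1076; liver had 2236 and 2281 lower against 4042; adipose had 1870 higher and 1822 lower, and 1995 and 1857, against 3143 and 3339. Batch 1 alone had 13 higher and 3 lower in muscle, 640 and 294 in liver, and 0 and 1 in adipose (limma-voom), and batch 2 alone 489 and 575 in muscle; both hold fewer animals. Without a filter, 9735 genes were lower in liver and 7616 in adipose, with more genes tested (29187 and 30598). Of the 56 other genes named in the text that passed in muscle, 55 kept their call with RLE scaling (not PDE8A), 55 with limma-voom (not CHRNA1), 52 without the animals holding another tissue's markers (not CDKN1A, GABARAP, KCNJ11 or RAPSN), 41 over all 588 libraries, 44 without a filter, 29 in batch 2 alone and 4 in batch 1 alone; ERGIC1 (−0.06) and PDE8A (0.00) lost their sign in batch 1. The cause of the other losses was not tested. RLE scaling moved the median gene of adipose against liver by 0.105, and ABAT did not change direction there. Without the 2 farthest animals, r of 0 yr with 2 yr in batch 1 no longer passed for PPP1R1B in adipose (0.53); in muscle, given without a test, it was 0.48 for PPP1R1B and 0.58 for KCNC1 in batch 1 and 0.24 for KCNC1 in batch 2. In muscle at 2 yr, also given without a test, r was −0.53 between PPP1R1B and ABAT in batch 1 and −0.38 in batch 2. Between KCNC1 and ABAT it was −0.34 in batch 2 but 0.10 in batch 1. Depth limits KCNC1 and PPP1R1B in liver and KCNC1 in adipose.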

Other observations

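Fast-fibre genes fell in 9 of 16 (56.2%, against 7.9% of all genes) and rose in none. MYH1, a fast myosin heavy chain, was at −0.33 ± 0.08 (SE, edgeR adjusted p = 0.00349) and MYLPF, a fast myosin light chain, at −0.33 ± 0.07 (adjusted p = 0.000406). The median r of the fast-fibre list was −0.25 with the change of ABAT, −0.08 with PPP1R1B and 0.05 with KCNC1. Fatty acid oxidation genes rose in 6 of 27 (22.2%, against 6.61% of all genes) and fell in none. Among them were CPT1B, the muscle carnitine palmitoyltransferase, at 0.42 ± 0.08 (adjusted p = 0.000105, higher in 70 of 95 animals) and HADHA at 0.25 ± 0.04 (adjusted p = 4.74e-05, higher in 72 of 95). The median r of the fatty acid oxidation list was 0.22 with PPP1R1B, 0.19 with KCNC1 and −0.10 with ABAT.

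Clock, glucocorticoid-response and immediate early genes were tested beside the 14.5% of all genes that passed in muscle. Of 18 clock genes, 3 (16.7%) passed: 2 were higher, CLOCK (0.11 ± 0.03, edgeR adjusted p = 0.00953) and NPAS2 (0.17 ± 0.06, adjusted p = 0.0296), and 1 was lower, DBP (−0.38 ± 0.11, adjusted p = 0.0121). Of 16 genes of glucocorticoid and fasting response, 1 (6.25%) was lower, FKBP5 (−0.22 ± 0.07, adjusted p = 0.0305), and of 17 immediate early genes 1 (5.88%) was higher, IER3 (0.40 ± 0.12, adjusted p = 0.0172). The median r of these 3 lists with the 3 genes lay between −0.09 and 0.19.

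The 2 muscle libraries that the authors left out were both LCLF. PPP1R1B, KCNC1 and ABAT were at 8.35, 2.73 and 3.44 CPM in the one, with 16.9% of counts on myofibre markers, and at 5.64, 0 and 7.99 CPM in the other, with 0.0328% on myofibre and 1.10% on adipocyte markers.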
